A study of Mus musculus with 6 samples.

Results

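Cells control their cholesterol with a pair of opposed gene programmes. The transcription factor SREBP2, released from the endoplasmic reticulum when membrane sterol is low, drives the enzymes that build cholesterol from acetyl-CoA, and the liver X receptors (LXR), nuclear receptors for oxidised sterols, drive genes that export cholesterol. In bone marrow progenitors sterol supply is tied to growth and division, and cholesterol export through ABCA1 and ABCG1 is known to restrain the expansion of stem and myeloid progenitors. The members examined here are 33 mouse genes of sterol synthesis, uptake, transport and export, taken by name from the 55487 genes of the count table through GENCODE M21. They fall into 21 SREBP2 targets (18 enzymes with Insig1, Srebf2 and Stard4), 4 LXR targets (Abca1, Abcg1, Mylip and Srebf1) and 8 other regulators and transport genes.

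RNA of megakaryocyte-erythroid progenitors, whose descendants are erythrocytes and platelets, was sequenced in bulk from wild-type C57BL/6 mice aged 8 weeks. The control group (treatment label "control") and the group fasted for 6 h had 3 libraries each. The question of the series is what short fasting does to erythropoiesis. The labels do not say whether a library is 1 mouse or a pool, so the p-values measure the spread between these libraries, which may be technical.

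Erythroid genes were abundant: of 16 erythroid markers 14 lay at or above 5 times the background. The 16 summed to 7838, 7736 and 4460 CPM (counts scaled by library total) in control libraries 1, 2 and 3. In fasted libraries 1, 2 and 3 they summed to 6305, 7248 and 9542 CPM. The sum of 16 granulocyte and monocyte markers was higher than the erythroid sum in control libraries 2 and 3, at 11800 and 17630 CPM. Libraries held 12797144 to 30246110 counts, the 3 control libraries being the deepest. Background, measured as counts per kilobase in 1466 odorant and vomeronasal receptor genes and extended to all exons, came to 3.903 to 8.595% of counts in control and 11.5 to 14.6% in fasted libraries. All CPM values below are relative to the library's total. The main test, edgeR's quasi-likelihood test with TMM scaling over all 36508 genes that passed the expression filter, put the median gene at or above 5 times the background at a log2 fold change of -0.50, so each member is also given from the same test run on those 10641 genes alone, called the expressed genes and the expressed-gene fit below, in which the median was 0.021. Gene positions are those of GENCODE M21 on GRCm38. Log2 fold changes are fasted against control, with standard errors (SE), and adjusted p-values are Benjamini-Hochberg over all genes of the fit named.

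So that promoter sequence can be set beside the values, stretches before the start sites of 5 SREBP2 targets are printed 5′ to 3′ on the gene's strand, from RefSeq on GRCm38.p6. Hmgcs1, Srebf2 and Msmo1 are those members of the 27 with a promoter entry that hold TCACNCCA, the core of the sterol regulatory element, and Ebp and Nsdhl are SREBP2 targets with lower levels after fasting that hold only CCAAT, the NF-Y site that commonly accompanies it. Capitals mark TCACNCCA and CCAAT or its reverse complement ATTGG. The Srebf2 stretch stops at the first M21 exon, and for Msmo1, where an M21 transcript starts further upstream, only a 30-base site is shown.
Hmgcs1 (chr13:119690151-119690350, plus strand): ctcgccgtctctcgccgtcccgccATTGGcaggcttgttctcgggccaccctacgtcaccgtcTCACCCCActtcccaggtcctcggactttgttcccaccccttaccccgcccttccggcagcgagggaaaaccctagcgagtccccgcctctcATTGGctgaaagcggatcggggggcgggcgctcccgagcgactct
Srebf2 (chr15:82147069-82147180, plus strand): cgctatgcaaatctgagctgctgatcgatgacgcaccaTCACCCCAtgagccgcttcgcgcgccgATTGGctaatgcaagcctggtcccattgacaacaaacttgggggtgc
Msmo1 (chr8:64733730-64733759, minus strand): attcTCACTCCAtccgcgcagCCAATgact
Ebp (chrX:8193513-8193712, minus strand): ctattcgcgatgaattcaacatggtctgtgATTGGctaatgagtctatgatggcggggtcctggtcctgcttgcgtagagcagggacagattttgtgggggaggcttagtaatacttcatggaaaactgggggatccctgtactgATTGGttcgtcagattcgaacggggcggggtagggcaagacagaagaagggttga
Nsdhl (chrX:72918321-72918520, plus strand): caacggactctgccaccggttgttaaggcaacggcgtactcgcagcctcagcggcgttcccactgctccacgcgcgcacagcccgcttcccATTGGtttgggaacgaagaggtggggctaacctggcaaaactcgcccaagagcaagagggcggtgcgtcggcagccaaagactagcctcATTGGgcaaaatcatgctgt

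Over the 250 bases before the start, searched on both strands, CCAAT was found in 16 of the 17 SREBP2 targets with an entry, against 37.5% of 27025 genes. TCACNCCA was found in 3 of those 17, against 4.20% of genes, and its last 3 letters can be the first of CCAAT. An exact direct repeat of AGGTCA with 4 bases between, the LXR consensus, was found in none of the 3 LXR targets with an entry. It was found in 0.0148% of genes, and imperfect repeats were not searched, so absence of an LXR element cannot be read from it. These matches describe the letters in the window only.

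Many sterol synthesis genes had lower levels in the fasted libraries, and how many passed a test depended on the scaling. By the fit of the whole gene set, 10 of the 21 SREBP2 targets passed as lower at an edgeR adjusted p under 0.05 and none as higher, and over all 33 members 14 passed as lower and 0 as higher. In that fit 3.82% of all genes passed as lower and 1.15% as higher. Among the expressed genes alone the shares were 12.9% lower and 0.0752% higher. The 10 were Acat2, Idi1, Fdft1, Sqle, Cyp51, Msmo1, Nsdhl, Ebp, Insig1 and Stard4. In the expressed-gene fit 0 of the 27 members tested passed after adjustment, as for all 10641 genes (0%). At an unadjusted p under 0.05 that fit had 10 of the 27 members lower, 9 of them among 18 SREBP2 targets, and 0 higher, against 8.30% of all its genes lower and 11.5% higher. Across the 18 expressed SREBP2 targets the median log2 fold change was -0.42 in the expressed-gene fit, 17 of them below 0, and -0.96 in the fit of the whole table.

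CPM values use no TMM scaling. For 11 of the 27 expressed members every fasted library lay below every control library, and for 0 every fasted library lay above. Of all genes at that level 14.7% were separated downwards and 13.0% upwards. The 11 were Acat2, Mvk, Cyp51, Msmo1, Nsdhl, Ebp, Sc5d, Insig1, Srebf2, Stard4 and Abcg1. Mvk and Sc5d were separated by narrow gaps, with 12.39 against 12.03 CPM for Mvk and 34.5 against 33.3 CPM for Sc5d between the nearest libraries of the groups.

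**Figure D1:**
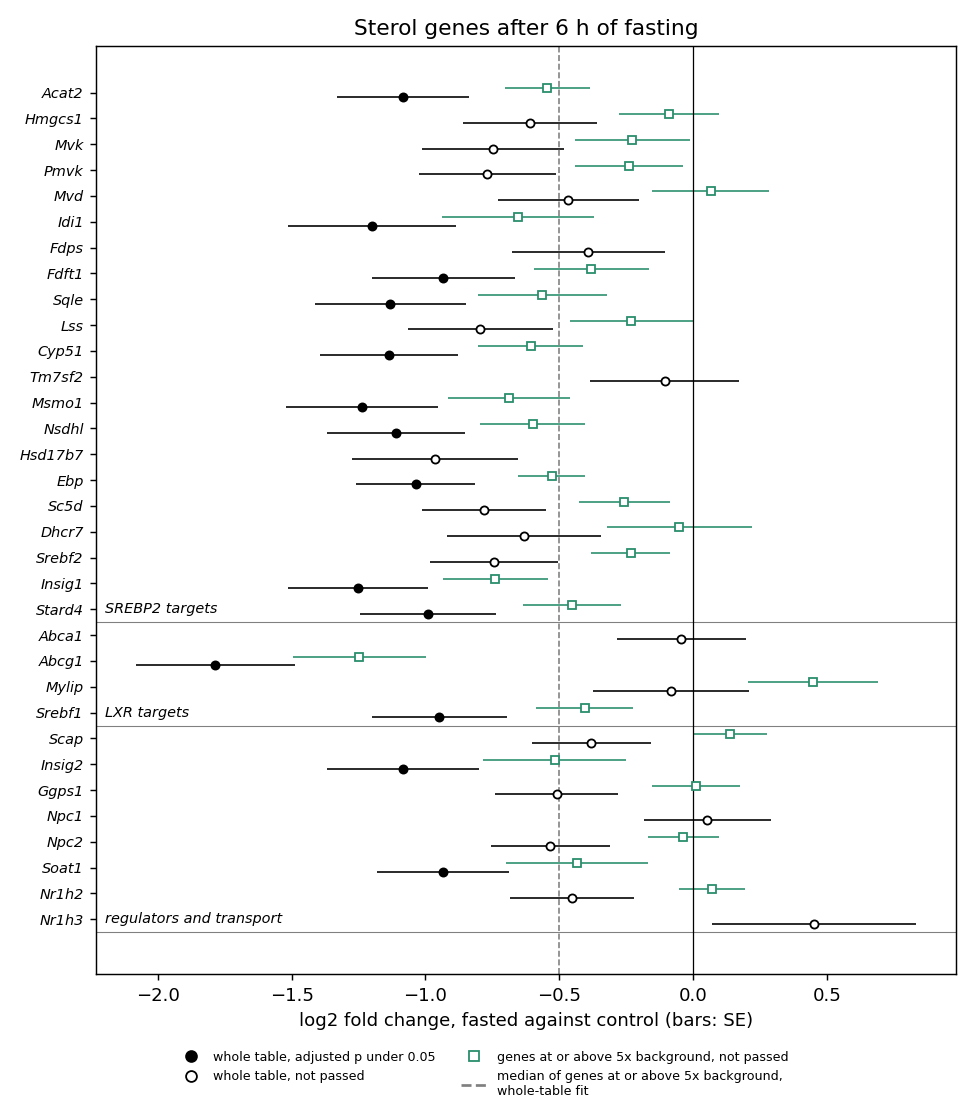
Log2 fold change of each of the 33 members, fasted against control, with SE bars, in the fit of the whole table (circles, filled where the adjusted p was under 0.05) and in the expressed-gene fit (squares); the dashed line is the whole-table median of expressed genes, -0.50. Of the 14 filled circles 10 are SREBP2 targets, and Abcg1 lies furthest to the left in both fits, at -1.79 and -1.25.

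Of the enzymes that make farnesyl diphosphate from acetyl-CoA, 2 of 7 passed as lower in the fit of the whole table. Acat2 (chromosome 17, 12942890 to 12960747), the cytosolic thiolase that joins acetyl-CoA units at the head of the pathway, had 89.7, 70.4 and 59.6 CPM in control libraries 1, 2 and 3 and 51.5, 46.9 and 48.9 CPM in fasted libraries 1, 2 and 3. The groups did not overlap, and the fasted libraries lay within a narrow band. It had a fitted log2 fold change of -1.09 (SE 0.25; edgeR adjusted p 0.0326) in the whole-table fit and -0.54 (SE 0.16; edgeR adjusted p 0.151) in the expressed-gene fit. Its near copy Acat3 had 46 to 80 counts per library, 1.93 times the background. Idi1 (chromosome 13, 8885501 to 8892451), which isomerises isopentenyl diphosphate, had 32.8, 24.3 and 15.8 CPM in control and 11.96, 18.1 and 14.9 CPM in fasted libraries. Control library 3 lay inside the fasted range. The log2 fold change of Idi1 was -1.20 (SE 0.31; edgeR adjusted p 0.0408) in the whole-table fit and -0.65 (SE 0.29; edgeR adjusted p 0.245) in the expressed-gene fit, and -0.41 (-0.405) in the latter without control library 1.

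Hmgcs1 (chromosome 13, 119690379 to 119708260), the synthase that makes HMG-CoA and a classical SREBP2 target, stood near the middle of the expressed genes. It had 37.1, 25.2 and 33.3 CPM in control and 29.3, 30.8 and 27.8 CPM in fasted libraries, so the fasted range lay inside the control range. Its fold change on the log2 scale was -0.61 (SE 0.25) and the edgeR adjusted p 0.121, and -0.09 (SE 0.19) in the expressed-gene fit. The kinases Mvk and Pmvk had log2 fold changes of -0.23 (SE 0.22) and -0.24 (SE 0.20) in the expressed-gene fit, and the decarboxylase gene Mvd had 0.07 (SE 0.22), with edgeR adjusted p between 0.529 and 0.884 for the 3 genes. In the fit of the whole table Mvd was at -0.47, so its sign turned with the scaling. Fdps, the farnesyl diphosphate synthase gene, lay at 3.81 times the background, with background making up 10.6 to 51.2% of its counts, and its 8.73 to 11.8 CPM in control and 9.14 to 13.3 CPM in fasted libraries overlapped.

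Of the 3 genes that turn farnesyl diphosphate into lanosterol, 2 passed as lower. Sqle (chromosome 15, 59315077 to 59331192), squalene epoxidase and a rate-limiting step of the later pathway, had 120.8, 66.0 and 62.5 CPM in control and 49.5, 50.9 and 64.1 CPM in fasted libraries. Control library 1 stood far above the other 5, and fasted library 3 lay between control libraries 2 and 3. For Sqle the fits gave log2 fold changes of -1.13 (SE 0.28; edgeR adjusted p 0.0384) in the whole-table fit and -0.56 (SE 0.24; edgeR adjusted p 0.245) in the expressed-gene fit. Without control library 1 the expressed-gene value was -0.22. Fdft1 (chromosome 14, 63145150 to 63179578), squalene synthase, had 36.5, 29.4 and 21.2 CPM in control and 23.0, 19.3 and 23.2 CPM in fasted libraries, with control library 3 inside the fasted range. This gave a log2 fold change of -0.93 (SE 0.27; edgeR adjusted p 0.0465) in the whole-table fit and -0.38 (SE 0.21; edgeR adjusted p 0.348) in the expressed-gene fit, where it was -0.21 without control library 1 and -0.58 without control library 3. Exons of Fdft1 overlap Ctsb, a cathepsin gene on the other strand. Lss, lanosterol synthase, had a log2 fold change of -0.79 (SE 0.27; edgeR adjusted p 0.0733) in the whole-table fit and -0.23 (SE 0.23) in the expressed-gene fit.

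The steps from lanosterol to cholesterol held 5 of the 11 separated genes: 4 of 8 passed as lower in the fit of the whole table, and 5 of the 6 expressed ones did not overlap in CPM. Their median in the expressed-gene fit was -0.56, with values from -0.69 to -0.05. For the 6 genes of the first steps at that level it was -0.23, with values from -0.65 to 0.07. For the 3 genes between them it was -0.38. The ranges overlapped, and a difference between steps was not tested. Cyp51 (chromosome 5, 4081145 to 4104746), the demethylase that first acts on lanosterol, had 72.6, 45.4 and 55.4 CPM in control and 42.3, 37.5 and 31.6 CPM in fasted libraries. Every fasted library lay below the lowest control library, by a small gap. The log2 fold change of Cyp51 was -1.14 (SE 0.26; edgeR adjusted p 0.0333) in the whole-table fit and -0.61 (SE 0.20; edgeR adjusted p 0.167) in the expressed-gene fit. Msmo1 (chromosome 8, 64718139 to 64733792) and Nsdhl (chromosome X, 72918557 to 72958514) act in turn to remove the methyl groups at the same carbon. Msmo1 had 61.7, 34.7 and 35.2 CPM in control and 26.6, 28.1 and 24.8 CPM in fasted libraries, with control library 1 standing apart above the rest. For Msmo1 the fits gave log2 fold changes of -1.24 (SE 0.28; edgeR adjusted p 0.0333) in the whole-table fit and -0.69 (SE 0.23; edgeR adjusted p 0.171) in the expressed-gene fit, and -0.39 in that fit without control library 1.

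Nsdhl had 49.1, 44.7 and 42.9 CPM in control and 23.1, 36.4 and 28.4 CPM in fasted libraries. Here the control libraries were close together and the fasted ones spread. Fasted against control, its log2 fold change stood at -1.11 (SE 0.26; edgeR adjusted p 0.0333) in the whole-table fit and -0.60 (SE 0.20; edgeR adjusted p 0.170) in the expressed-gene fit. Ebp (chromosome X, 8185329 to 8193512), the sterol isomerase known as emopamil binding protein, had 77.96, 86.0 and 84.0 CPM in control and 59.4, 54.5 and 54.7 CPM in fasted libraries. Ebp had tight values in both groups and a wide gap between them, and unlike most of the list it was lowest among controls in library 1. On the log2 scale its fold change stood at -1.04 (SE 0.22; edgeR adjusted p 0.0279) in the whole-table fit and -0.53 (SE 0.13; edgeR adjusted p 0.131) in the expressed-gene fit, where it stayed between -0.59 and -0.50 (-0.505) whichever library was left out. In the whole-table fit Sc5d, a desaturase, had a log2 fold change of -0.78 (SE 0.23; edgeR adjusted p 0.0507), and Dhcr7, the reductase of a late step, had -0.63 (SE 0.29; edgeR adjusted p 0.158). In the expressed-gene fit Sc5d was at -0.26 (SE 0.17) and Dhcr7 at -0.05 (SE 0.27), with 38.4 to 79.6 CPM of Dhcr7 in control libraries. Tm7sf2, a sterol reductase, and Hsd17b7 lay at 3.87 and 4.05 times the background. Their log2 fold changes in the fit of the whole table were -0.11 (SE 0.28) and -0.96 (SE 0.31), with edgeR adjusted p of 0.813 and 0.0628.

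Of Insig1, Srebf2 and Stard4, SREBP2 targets that are not enzymes of synthesis, Insig1 and Stard4 passed as lower. Insig1 (chromosome 5, 28071363 to 28078662) encodes the membrane protein that holds the SCAP-SREBP complex in the endoplasmic reticulum when sterol is plentiful, and its transcription follows SREBP2 activity closely. It had 48.7, 38.6 and 40.4 CPM in control and 28.0, 27.5 and 19.3 CPM in fasted libraries. Between the nearest libraries of the groups, at 38.6 and 28.0 CPM, the gap was similar to the range within each group. The log2 fold change of Insig1, the lowest of the 21 SREBP2 targets in both fits, was -1.25 (SE 0.26; edgeR adjusted p 0.0277) in the whole-table fit and -0.74 (SE 0.20; edgeR adjusted p 0.143) in the expressed-gene fit, a fasted to control ratio of 0.600. Srebf2 (chromosome 15, 82147181 to 82205379), which encodes SREBP2 and is its own target, had 206.7, 186.6 and 184.4 CPM in control and 176.1, 175.5 and 129.1 CPM in fasted libraries. The groups did not overlap, but fasted libraries 1 and 2 lay close under control libraries 2 and 3. The fits put its log2 fold change at -0.74 (SE 0.24; edgeR adjusted p 0.0617) in the whole-table fit and -0.23 (SE 0.15; edgeR adjusted p 0.396) in the expressed-gene fit, where it was -0.10 (-0.096) without fasted library 3 and -0.36 without fasted library 2.

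Stard4 (chromosome 18, 33199355 to 33213862), which encodes a carrier of cholesterol between membranes, had 51.4, 36.1 and 36.5 CPM in control and 33.3, 27.8 and 27.6 CPM in fasted libraries. It was separated, with control library 1 highest. It had a fitted log2 fold change of -0.99 (SE 0.25; edgeR adjusted p 0.0389) in the whole-table fit and -0.45 (SE 0.18; edgeR adjusted p 0.225) in the expressed-gene fit, where it was -0.29 without control library 1. Scap, the escort that carries SREBP to the Golgi, stood apart from its partners with 59.7 to 65.3 CPM in control and 57.8 to 75.0 CPM in fasted libraries and overlapping groups. Its fold change on the log2 scale was -0.38 (SE 0.22) in the fit of the whole table and 0.14 (SE 0.14) in the expressed-gene fit. Insig2 (chromosome 1, 121304353 to 121332589), the second INSIG protein, had 27.7, 19.9 and 17.2 CPM in control and 15.1, 10.3 and 19.0 CPM in fasted libraries. Fasted library 3 lay inside the control range, and the log2 fold change of Insig2 was -1.09 (SE 0.28; edgeR adjusted p 0.0408) in the whole-table fit and -0.52 (SE 0.27; edgeR adjusted p 0.315) in the expressed-gene fit, where it was -0.33 without control library 1.

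**Figure D2:**
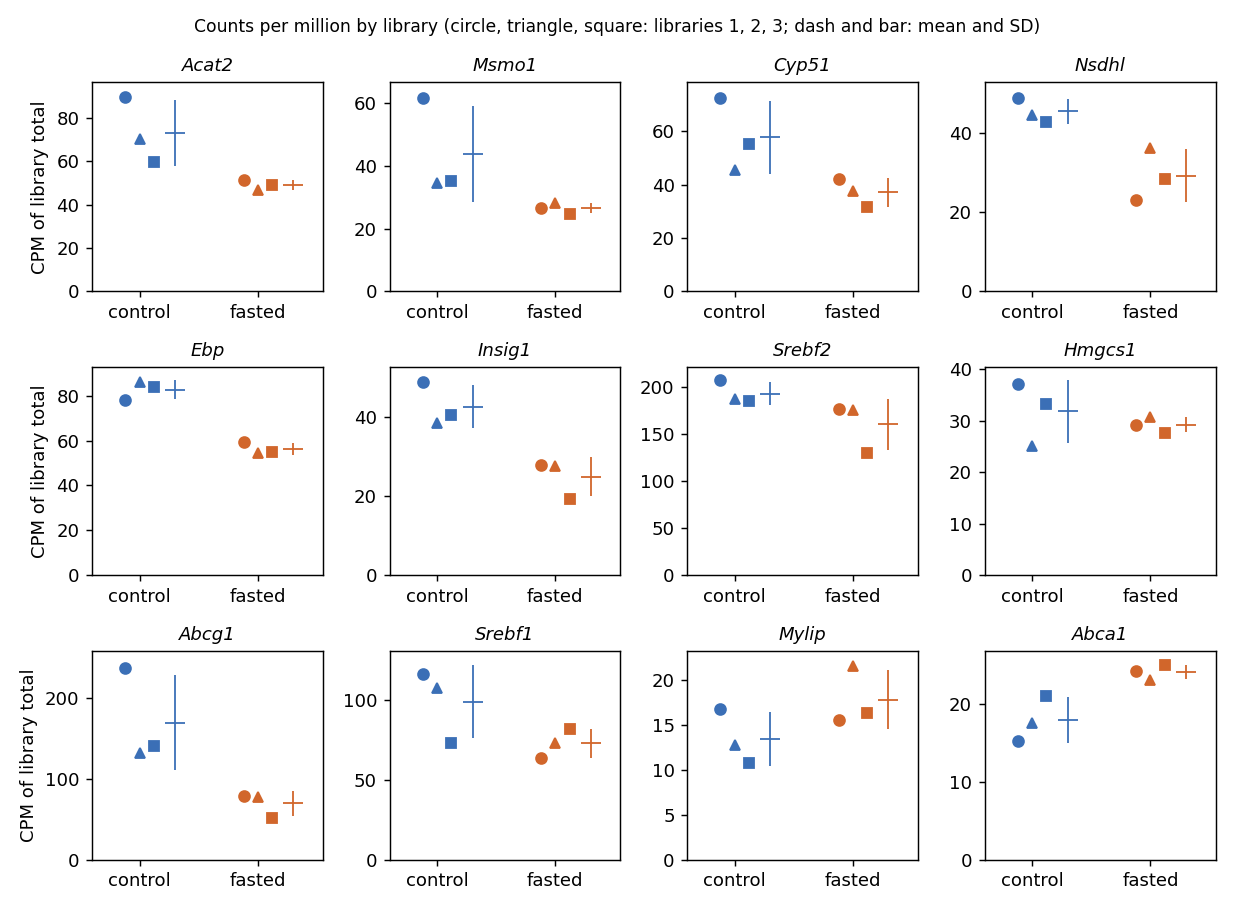
CPM of library totals for 12 members in each of the 3 control (blue) and 3 fasted (orange) libraries, with the mean and SD of each group. Acat2, Msmo1, Cyp51, Nsdhl, Ebp, Insig1, Srebf2 and Abcg1 do not overlap between groups, Hmgcs1, Srebf1 and Mylip do, and Abca1 is higher in all fasted libraries before background is taken off.

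The 4 LXR targets differed widely from each other, with whole-table log2 fold changes from -1.785 to -0.044. Of the 4, Abcg1 and Srebf1 passed as lower in the fit of the whole table and none passed as higher. Abcg1 (chromosome 17, 31057675 to 31117988), which exports cholesterol to high-density lipoprotein, had 236.9, 132.1 and 140.2 CPM in control and 79.4, 77.8 and 51.8 CPM in fasted libraries. The highest fasted library lay well below the lowest control library. The log2 fold change of Abcg1 was -1.79 (SE 0.30; edgeR adjusted p 0.0119) in the whole-table fit and -1.25 (SE 0.25; edgeR adjusted p 0.131) in the expressed-gene fit, a fasted to control ratio of 0.421. It was the lowest of the 33 members and ranked 37 from the lowest among 10641 expressed genes, and without control library 1 its expressed-gene value was -0.96.

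Srebf1 (chromosome 11, 60199089 to 60222581) encodes SREBP1, of which only the SREBP1c transcript is known to follow LXR, and counts per gene do not separate it from SREBP1a. It had 115.9, 107.5 and 72.98 CPM in control and 63.8, 73.1 and 81.8 CPM in fasted libraries, with control library 3 inside the fasted range. This gave a log2 fold change of -0.95 (SE 0.25; edgeR adjusted p 0.0408) in the whole-table fit and -0.40 (SE 0.18; edgeR adjusted p 0.259) in the expressed-gene fit. Its exons overlap Rai1 on the other strand. Mylip (chromosome 13, 45389742 to 45412022) encodes IDOL, the ubiquitin ligase that degrades the LDL receptor. It had 16.8, 12.7 and 10.8 CPM in control and 15.6, 21.6 and 16.3 CPM in fasted libraries. Control library 1 lay inside the fasted range, and the log2 fold change of Mylip was -0.08 (SE 0.29) in the fit of the whole table and 0.45 (SE 0.24; edgeR adjusted p 0.333) in the expressed-gene fit, so its sign turned with the scaling. Without fasted library 2 the expressed-gene value of Mylip was 0.23.

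Abca1 (chromosome 4, 53030787 to 53159895), which exports cholesterol to lipid-poor apolipoprotein, lay at 2.95 times the background and was outside the expressed-gene fit. It had 15.3, 17.6 and 21.1 CPM in control and 24.3, 23.2 and 25.1 CPM in fasted libraries, higher in every fasted library. Background made up 20.2 to 32.2% of its counts in control and 39.2 to 47.4% in fasted libraries. With that background taken off it had 12.2, 12.5 and 14.3 CPM in control and 12.8, 14.1 and 14.8 CPM in fasted libraries, and the groups overlapped. Its log2 fold change in the fit of the whole table was -0.04 (SE 0.24; edgeR adjusted p 0.912).

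Set side by side, the medians of the 2 target lists depended on which LXR genes entered. In the fit of the whole table the expressed SREBP2 targets had a median log2 fold change of -0.96 and the 4 LXR targets -0.51, a difference of -0.45. In the expressed-gene fit, which drops Abca1, the medians were -0.42 over 18 genes and -0.40 (-0.405) over 3 genes, a difference of -0.01. The LXR value there is that of Srebf1, between Abcg1 far below it and Mylip above it. Means of centred log2 CPM over the expressed genes were 0.46, 0.14 and 0.004 for SREBP2 targets of control libraries, against -0.19, -0.23 and -0.18 in fasted libraries. For the 3 LXR targets the control means were 0.58, 0.14 and -0.09 and the fasted means -0.26, -0.05 and -0.32, where control library 3 lay below fasted library 2. As summed CPM both lists separated the groups: the 3 LXR targets summed to 369.6, 252.4 and 224.0 CPM in control and 158.7, 172.5 and 149.9 CPM in fasted libraries. Abcg1 was the largest part of that sum in each control library, at 236.9, 132.1 and 140.2 CPM. Singly, Srebf1 and Mylip overlapped between the groups. The difference between the list means, SREBP2 minus LXR, was -0.124, -0.002 and 0.096 in control libraries and 0.066, -0.181 and 0.146 in fasted libraries, which overlapped.

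**Figure D3:**
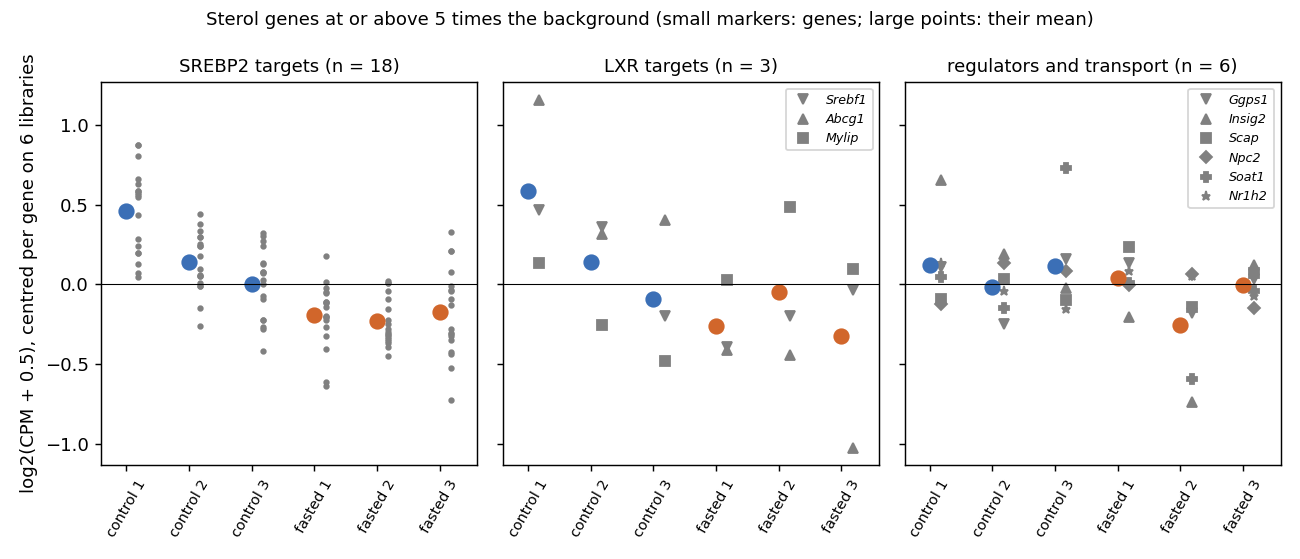
Log2(CPM + 0.5) of each expressed member, centred on its mean over 6 libraries, with the mean of each list as a large point (blue control, orange fasted). The SREBP2 means lie at 0.46, 0.14 and 0.004 in control and at -0.19, -0.23 and -0.18 in fasted libraries, and the 3 LXR genes spread apart, Abcg1 lowest and Mylip high in fasted libraries.

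Of the 8 other regulators and transport genes only Insig2 and Soat1 passed, both as lower in the fit of the whole table. Nr1h2, the gene of LXR beta, had 120.1, 105.9 and 97.9 CPM in control and 115.9, 113.4 and 103.9 CPM in fasted libraries, overlapping throughout. Fasted against control, its log2 fold change stood at -0.45 (SE 0.23; edgeR adjusted p 0.199) in the whole-table fit and 0.07 (SE 0.12) in the expressed-gene fit, so its sign turned with the scaling. Nr1h3, the gene of LXR alpha, was barely above background at 1.60 times it, with 1.42, 2.13 and 2.50 CPM in control and 3.67, 2.91 and 4.97 CPM in fasted libraries, of which background made up 50.3 to 76.1%. Its log2 fold change in the fit of the whole table was 0.45 (SE 0.38; edgeR adjusted p 0.423). Soat1 (chromosome 1, 156424525 to 156474331), which esterifies cholesterol for storage, had 40.2, 35.0 and 64.96 CPM in control and 39.1, 25.6 and 37.7 CPM in fasted libraries, the groups overlapping and control library 3 standing highest. On the log2 scale its fold change stood at -0.93 (SE 0.25; edgeR adjusted p 0.0408) in the whole-table fit and -0.43 (SE 0.26; edgeR adjusted p 0.384) in the expressed-gene fit, and -0.12 (-0.125) in the latter without control library 3.

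Npc2, the soluble carrier that hands lysosomal cholesterol to NPC1, had 180.6 to 216.0 CPM in control and 177.6 to 205.3 CPM in fasted libraries, with a log2 fold change of -0.53 (SE 0.22; edgeR adjusted p 0.126) in the whole-table fit and -0.04 (SE 0.13) in the expressed-gene fit. Npc1 lay at 3.19 times the background and its 17.3 to 22.3 CPM in control and 26.3 to 34.2 CPM in fasted libraries did not overlap, while with background taken off it had 13.9 to 16.7 and 16.4 to 21.6 CPM, which did. Ggps1, the synthase of the geranylgeranyl group used to anchor proteins, had log2 fold changes of 0.01 (SE 0.16) in the expressed-gene fit and -0.51 (SE 0.23) in the fit of the whole table.

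Per kilobase of exon the members spanned a wide range of levels in control libraries. Npc2 and Ebp were highest, at 37.1 ± 3.43 and 35.8 ± 1.81 CPM per kilobase (SD, n = 3 each), a difference smaller than the SD of Npc2. Nr1h2 had 32.2 ± 3.36, Acat2 28.8 ± 5.99, Srebf2 26.8 ± 1.72 and Abcg1 23.3 ± 7.99 CPM per kilobase (SD, n = 3 each). The level of Abca1 was 1.74 ± 0.281 CPM per kilobase (SD, n = 3), far below that of Abcg1. In fasted libraries Abcg1 stood at 9.55 CPM per kilobase.

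Among 65 further genes of the pathway, 8 passed as lower and 1 as higher in the fit of the whole table. Of all genes in that fit 3.82% passed as lower and 1.15% as higher, and of the expressed genes 12.9% and 0.0752%. In the expressed-gene fit 0 of the 46 tested passed. At an unadjusted p under 0.05 in edgeR 7 of the 46 were lower and 3 higher, against 8.30% and 11.5% of all genes of that fit. Of 8 other sterol synthesis genes 5 passed as lower, Lbr and Tmem97 among them. Of 13 isoprenoid genes 2 passed as lower, the protein prenylation genes Rabggta and Rce1. Of 10 genes of SREBP processing and turnover 1 passed as lower, Erlin2. Of 20 uptake and transport genes 0 passed in edgeR. At an unadjusted p under 0.05, 9 of the 20 were lower and 0 higher in the whole-table fit. Over all genes of that fit the shares were 14.4% lower and 14.2% higher, and its median expressed gene stood at -0.50. In the expressed-gene fit 0 of 14 were lower and 2 higher at that p, against 8.30% of all its genes lower and 11.5% higher. The 2 were the transporter genes Abca7 at a log2 fold change of 0.39 (SE 0.12) and Abcg4 at 0.90 (SE 0.33), both named after their values were seen. Of 14 other LXR genes 1 passed as higher, Pltp, a lipid transfer protein, at 1.59 times the background with 0.992 to 1.56 CPM in control and 3.90 to 6.25 CPM in fasted libraries.

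Several library features moved alongside these values. Control library 1 was the deepest and held the highest CPM of 13 of the 18 SREBP2 targets. Left out, the fit of the whole table passed 8 of 33 members as lower in place of 14 (Abcg1, Acat2, Cyp51, Ebp, Insig1, Msmo1, Nsdhl and Soat1). The count also fell to 4 without control library 2, 1 without fasted library 1 and 0 without fasted library 3. It rose to 21 without control library 3. Over all genes those 4 fits passed 152 of 38168, 93 of 38494, 7 of 38327 and 3903 of 37917 as lower. Without control library 1 it was 858 of 38248 genes, and with all 6 libraries 1393 of 36508. The member counts thus rose and fell with the calls over all genes. The 11 members that did not overlap in CPM became 17 without control library 3 and 11 to 14 without any other single library. Leaving out a library cannot make separated groups overlap, so this count could not fall below 11 and is no check of stability. The share over all genes with 1 library left out was not computed. Granulocyte and monocyte markers, all 16 expressed, summed to 3708, 11800 and 17630 CPM in control libraries 1, 2 and 3 and 4504, 3014 and 1952 CPM in fasted libraries 1, 2 and 3. All 16 were below 0 in the expressed-gene fit, with a median log2 fold change of -1.51. Of 14 erythroid markers in that fit 12 were above 0 and 2 below, with a median of 0.29. The sum of the 18 SREBP2 targets was 1121, 882.8 and 828.1 CPM in control and 725.6, 698.4 and 692.8 CPM in fasted libraries. The 13 megakaryocyte markers summed to 450.0 to 611.9 CPM in control and 308.6 to 460.6 CPM in fasted libraries. The 10 macrophage markers, 2 of them expressed, summed to 58.9 to 99.9 CPM in control and 70.8 to 96.3 CPM in fasted libraries, with Adgre1, C1qa, C1qb and C1qc below that level. The 12 lymphocyte markers, 5 at that level, summed to 74.2 to 129.5 CPM in control and 118.1 to 243.7 CPM in fasted libraries. The part of depth, background and erythroid, granulocyte, monocyte, megakaryocyte and lymphocyte RNA in the lower sterol values was not tested. In bulk RNA fewer cells of a type and less RNA per cell cannot be told apart.

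**Figure D4:**
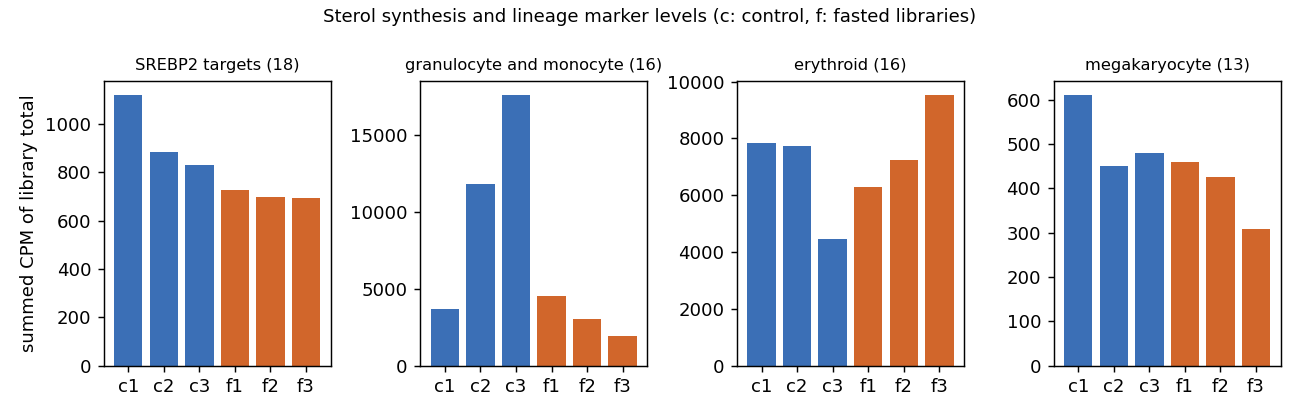
Summed CPM of the 18 expressed SREBP2 targets and of granulocyte and monocyte, erythroid and megakaryocyte markers in control (blue, c1 to c3) and fasted (orange, f1 to f3) libraries, each panel from 0. The sterol sums are 1121, 882.8 and 828.1 in c1 to c3 and 725.6, 698.4 and 692.8 in f1 to f3. The granulocyte and monocyte sums are 3708, 11800 and 17630 in c1 to c3 and 4504, 3014 and 1952 in f1 to f3. A relation between the panels was not tested.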

How the data were processed

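The authors deposited raw counts per gene for 3 control and 3 fasted libraries, with each gene's exonic length. The submitters' processing notes name HISAT2 2.2.1, featureCounts 2.0.1 and GRCm38. Annotation release, strand setting and read filters are not given in the sources used here. Gene identifiers were matched to GENCODE M21 without regard to version (55227 of 55487), and 54435 matched with version and the same exonic length; for Fdft1 the version differed. Exons of 9 members overlap a gene on the other strand and those of 3 a gene on the same strand, and the counts cannot separate them where strand was not used.

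Counts were filtered with filterByExpr (36508 genes), scaled by TMM and fitted with edgeR 4.0.16 in R 4.3.3 (robust estimateDisp and glmQLFit, group as the only term). The SE is the log2 fold change divided by the square root of F. The expressed-gene fit repeats this on genes whose mean count over 6 libraries was at or above 5 times the receptor-gene rate times their length. Named genes were members passing in the fit of the whole table or at an unadjusted p under 0.05 in the expressed-gene fit, the LXR targets, Srebf2, Insig1, Hmgcs1, Sqle, Nr1h2 and Nr1h3. Members and lists were chosen with earlier results of these data known, so lists have counts and medians and no test. DESeq2 1.42.0 and limma-voom (limma 3.58.1) were alternatives. The edgeR, limma-voom and DESeq2 fitting steps, with group as the only term, were tested on simulated counts, and the other steps were not.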

Additional observations from a re-analysis of the deposited data

How the results depend on the processing

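Of the 33 members 14 passed as lower in the fit of the whole table. The count was 0 in the expressed-gene fit, 0 after subtracting background, 7 with library totals and 6 with factors from expressed genes. It was 25 with DESeq2, which gave no adjusted p to 33859 genes. No setting passed a member as higher. Over all genes 1393 of 36508 passed as lower in the main fit, 291 with library totals and 278 with factors from expressed genes. With DESeq2 5585 of the 19063 genes with an adjusted p passed as lower, so its 25 stands on a much higher share. Leaving out 1 library gave 0 to 21, where 7 to 3903 of all genes passed as lower, and 0 in each expressed-gene fit. Deviations of libraries with the same replicate number correlated at -0.17, 0.14 and -0.333 across genes, and those with different numbers at -0.174 to 0.303. With 3 libraries per group these values show no pairing by number but cannot exclude one. With a replicate block 2 members passed, where 132 of all 36508 genes passed as lower, and 0 in the expressed-gene fit with the replicate block. The SREBP2 median, -0.962, stayed negative in all settings run: -0.416 in the expressed-gene fit (-0.397 with the block), -1.164 with RLE factors, -1.196 with DESeq2, -0.445 with library totals, -0.444 with factors from expressed genes and -0.489 after subtracting background, and without 1 library -1.132 to -0.713, or -0.534 to -0.288 in the expressed-gene fit. The median of all expressed genes moved with the scaling too. It was -0.499 in the main fit, -0.692 with RLE factors, -0.713 with DESeq2 and -0.630 to -0.392 in whole-table fits without 1 library. It was -0.004 with library totals, -0.007 with factors from expressed genes, 0.021 in the expressed-gene fit and 0.020 after subtracting background. The LXR median, -0.514, was -0.012 with library totals, -0.007 with factors from expressed genes and -0.081 with Nr1h3 added. The SREBP2 minus LXR difference, -0.447, was -0.011 in the expressed-gene fit (-0.007 with the block), -0.095 after subtracting background and -0.881 with Nr1h3 added, and without 1 library -0.514 to -0.282, or -0.118 to 0.072 in the expressed-gene fit.

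Log2 fold changes of single genes that turned sign were as follows. With library totals and with factors from expressed genes, Abca1 was at 0.431 and 0.424, Fdps at 0.120 and 0.120, Tm7sf2 at 0.401 and 0.398, Mvd at 0.041 and 0.037, Mylip at 0.412 and 0.420, Nr1h2 at 0.044 and 0.045 and Scap at 0.117 and 0.111. In the expressed-gene fit, that fit with the block, and after subtracting background, Ggps1 was at 0.011, 0.019 and 0.012, Mvd at 0.067, 0.050 and 0.047, Mylip at 0.447, 0.448 and 0.424, Nr1h2 at 0.072, 0.073 and 0.134 and Scap at 0.140, 0.136 and 0.140. Npc2 was at 0.022 after subtracting background, Abca1 at 0.005 with a CPM filter, and Npc1 at -0.138 with RLE factors and -0.167 with DESeq2. Without 1 library the whole-table ranges were -0.416 to 0.203 for Mylip, -0.042 to 0.110 for Npc1 and -0.320 to 0.012 for Tm7sf2. From the lowest whole-table to the highest expressed-gene value without 1 library, Dhcr7 ran from -0.902 to 0.290, Ggps1 from -0.648 to 0.080, Hmgcs1 from -0.808 to 0.009, Lss from -1.041 to 0.005, Mvd from -0.591 to 0.152, Npc2 from -0.748 to 0.025, Nr1h2 from -0.625 to 0.131 and Scap from -0.485 to 0.182, while Mylip reached 0.613 in the expressed-gene fit. The cause of these changes was not tested. Nr1h3, Abca1, Npc1, Fdps, Tm7sf2 and Hsd17b7 lay under 5 times the background and have no expressed-gene value. In the expressed-gene fit without 1 library, Pmvk ran from -0.429 to -0.097 and Lss from -0.421 to 0.005.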
